A study of Mus musculus with 4 samples.

Results

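The Pou3f1 locus was described by the Gata6 peaks listed around it on mouse chromosome 4. Peaks were taken where their midpoint lay in chr4:124000000-124700000 of build mm9, which gave 7 of the 596 listed peaks of chromosome 4. The list holds a further 11541 peaks on the other 19 chromosomes. The window was selected on the measured positions and name numbers of its peaks, for a close group of 4 in which 1 carries name number 4 of the chromosome, so the count, the closeness and the low numbers are descriptions and no test was made of them. The name number is the whole number that follows the chromosome in each deposited peak name (chr4-4). No source used here says what it counts. Read in order of number, the 596 peaks of chromosome 4 form 59 series, each rising in position. Within a series the lower number therefore belongs to the lower position.

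The list came from primary mouse keratinocytes, the epithelial cells of the epidermis, isolated from dorsal skin of C57BL6/CBA background. All cells carried the K14deltaNLef1 transgene, named for the keratin 14 promoter of basal epidermal cells and for an N-terminally truncated Lef1. Full-length Lef1 is a nuclear effector of Wnt signalling, which is not claimed here for the truncated form. All cells were infected with a lentivirus that overexpresses Gata6, so binding was mapped at a raised level of the factor. No library came from uninfected or non-transgenic cells. Gata6 was precipitated in 2 libraries with different antibodies, from R&D Systems and Cell Signaling. A Flag antibody served as negative control (1 library) and input DNA as a further control (1 library). The extraction protocol in the labels speaks of deltaNLef1 as the precipitated protein, but Gata6 and Flag are the targets given by the sample titles and by the antibody entries. The titles were followed here, so the name Gata6 peaks rests on them. For the library made with the R&D Systems antibody the genotype is spelled K14deltaNLef1N, which was read as the same genotype. The cells were grown on irradiated 3T3-J2 feeders, which are mouse fibroblasts. The sources used here give neither the age nor the number of animals, nor whether they were pooled. The data are 1 overlap list of intervals with no value per library, so no replicate error exists for any value below, and neither the antibodies nor the controls could be compared at this locus. The cell type could not be checked against its markers, since nothing in the list measures expression.

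Gata6 is a zinc-finger transcription factor of the GATA family, which binds DNA at GATA-containing motifs and is known in endodermal, cardiac and epithelial lineages. In skin it marks cells of the upper pilosebaceous unit, including the sebaceous duct. Pou3f1, also called Oct6, Scip or Tst-1, is a transcription factor of the POU family, whose paired POU-specific domain and homeodomain bind octamer motifs. It is best known for its role in Schwann cells as they begin to myelinate axons, and it is also expressed in differentiating epidermal keratinocytes. ChIP-seq peaks show where a factor was recovered on DNA and do not show which gene, if any, it acts on.

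The gene itself was placed at about chr4:124330000 of mm9, a position given here only to 10 kb. An uncertainty of 5 kb to either side was therefore assumed for every distance to Pou3f1. Of the 7 peaks, 6 lay below this position and 1 above it, and all 7 lay within 100 kb of it. In the order of a RefSeq gene table of another build (GRCm38.p6), used for names and order only, the next coding genes on the lower side were Rragc, a Rag GTPase of amino-acid signalling to mTORC1, then Mycbp, a Myc-binding protein, and the predicted gene Gm31309. The next on the upper side were Utp11, a factor of small-subunit ribosome processing, then Fhl3, a LIM-domain protein, and Sf3a3, a splicing factor subunit. Between Rragc and Pou3f1 that table lists 10 long non-coding RNAs and no coding gene. Which of these genes the peaks overlap was not determined.

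The group of 4 was the part nearest to Pou3f1. It spanned chr4:124318535-124324116 (mm9), or 5.58 kb, of which the peaks themselves covered 585 bp (10.5%). Its near edge lay 5.88 kb below the stated position of the gene, and its far edge 11.5 kb below. With the gene 5 kb lower or higher, the near edge would be 0.884 or 10.9 kb away. Throughout this assumed range the group lay below the gene position, and no peak of the list lay within the 10 kb taken for that position. Which point of the gene the position marks, and how far the gene extends, is not known here. Whether the group overlaps the gene was therefore not determined.

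Within the group the first peak, chr4:124318535-124318690, was 156 bp wide and carried number 126. The next, 2.67 kb further between midpoints, was chr4:124321217-124321357, with a width of 141 bp and number 182. The peak with number 4 followed after 1.14 kb at chr4:124322342-124322507 and was 166 bp wide. The last member, chr4:124323995-124324116, followed after 1.63 kb, was 122 bp wide and carried number 220. Ordered by number instead of position, the widths of the 4 members ran from 166 to 156, 141 and 122 bp. Within these 4 peaks the lower number went with the wider peak. This did not hold over the whole locus, where the peak with number 524 was 165 bp wide.

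The width of 166 bp of the peak with number 4 is the largest in the whole list and was shared by 29 of the 596 peaks of chromosome 4 (4.87%). Widths here are those of the deposited overlap intervals, which run from 1 to 166 bp in the whole list. How those intervals were formed is not stated, so width is not read here as the breadth of a bound site. The narrowest member of the group, at 122 bp, was wider than 28.4% of the peaks of the chromosome, and 71.6% were as wide or wider.

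Outside the group, 3 peaks made up the rest of the locus. The peak at chr4:124301014-124301154 lay 17.5 kb below the first member of the group, was 141 bp wide and carried number 579. The peak at chr4:124261559-124261723 lay a further 39.4 kb below, was 165 bp wide and carried number 524. Both had higher numbers than any member of the group. On the other side of Pou3f1 the peak at chr4:124382488-124382641 lay 58.5 kb above the last member of the group and 52.6 kb above the stated gene position, and was 154 bp wide. Its number, 170, fell between those of the group members numbered 126 and 182.

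**Figure D1:**
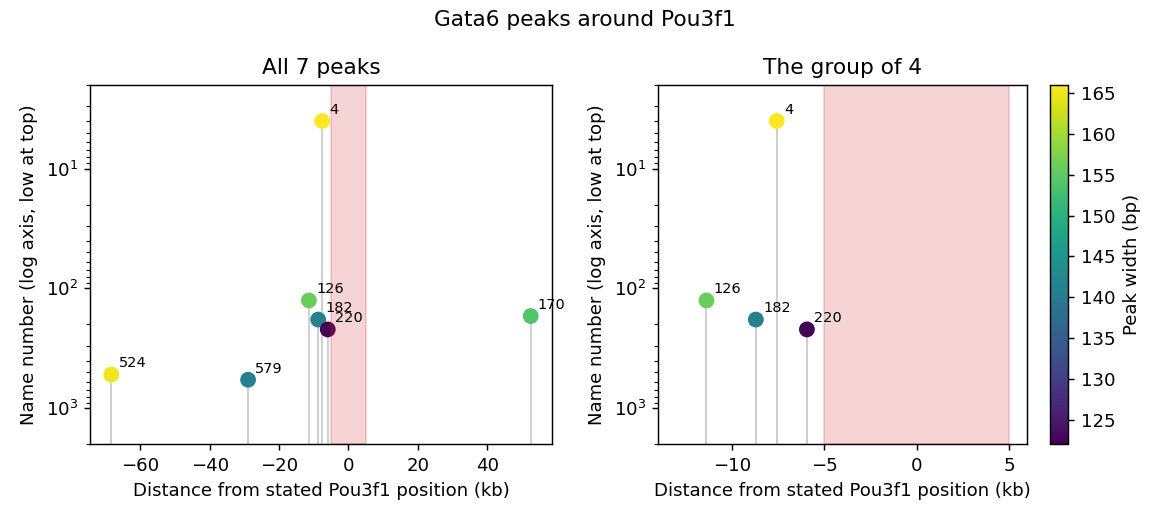
Name number (log axis, low numbers at the top) of the 7 listed peaks against distance in kb from the stated position of Pou3f1, for the whole locus (left) and the group of 4 (right). Each point is 1 peak, its colour is the width in bp, and the grey lines only mark its position. The red band is the 10 kb taken for the gene position and not the extent of the gene. The peak with number 4 stands 7.58 kb below the stated position among members numbered 126, 182 and 220.

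The locus stood between long stretches without a peak. The nearest listed peak below it was chr4:123911064-123911228, with number 659 and a width of 165 bp, 350.5 kb before the first peak of the locus. The nearest above it was chr4:124794028-124794138, with number 201 and a width of 111 bp, 411.5 kb after the last. Neighbouring midpoints on chromosome 4 lay a median of 52.9 kb apart, and of its 595 such distances 90 were longer than the first of these stretches and 78 were longer than the second. The peaks outside the window lay 88.9 and 94.1 kb beyond its lower and upper bounds, and the outermost members lay 262 and 317 kb inside them. The membership thus did not hinge on the exact bounds.

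The 7 peaks lay within 121 kb, or 57.8 peaks per Mb. When chromosome 4 was divided wherever neighbouring peaks were more than 300 kb apart, it fell into 106 blocks, and 23 of them held 7 or more peaks. The block around Pou3f1 had the highest density of these 23, followed by one with 28.9 per Mb, and their median was 16.0 per Mb. At a division of 200 kb it was second of 23, and at 400 kb it joined the peaks on its lower side into a block of 24 peaks with 13.1 per Mb, which ranked 13 of the 21 blocks with 7 or more peaks. Among the 590 runs of 7 successive peaks on chromosome 4, 30 (5.08%) covered 121 kb or less between their outer midpoints, against a median of 754 kb. These runs overlap each other, and the division into blocks was chosen after the data were seen.

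Counted over the full 700 kb, the locus was denser than chromosome 4 as a whole but not among the fullest windows. It held 10 peaks per Mb, against 3.92 per Mb over the 152 Mb between the first and last peaks of chromosome 4, a ratio of 2.55. Of the 217 complete windows of 700 kb, 24 held more peaks and 30 (13.8%) held 7 or more. The median window held 1 peak, 85 windows held none and the fullest held 24. When the windows were shifted in 100-kb steps, the share with 7 or more peaks was 13.0 to 14.8%.

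**Figure D2:**
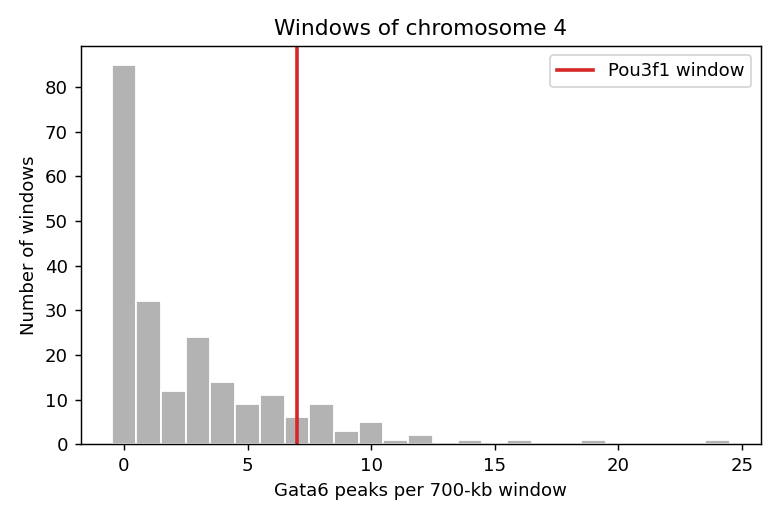
Number of complete 700-kb windows of chromosome 4 (y axis) by the number of Gata6 peaks they hold (x axis). The red line marks the Pou3f1 window, at 7 peaks, which 24 of the 217 windows exceed.

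The group near Pou3f1 was 1 of 25 in the list in which at least 4 peaks follow each other at no more than 5 kb. Of these, 22 had 4 peaks, with spans from 3.03 to 11.1 kb and a median of 7.43 kb, and the Pou3f1 group was the fifth most compact. Its largest internal distance between midpoints was 2.67 kb. Chromosome 4 held 3 such groups. The other two were chr4:123098031-123105661, spanning 7.63 kb with numbers from 85 to 1515, and chr4:142886127-142895213, spanning 9.09 kb with numbers from 241 to 1271. In both of these the highest number was far above that of the Pou3f1 group, 220.

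No other group of the 25 held a name number of 10 or below. The next lowest numbers were 12, in a group on chromosome 19 (chr19:32140530-32145681), and 17, in a group on chromosome 2 (chr2:129233473-129239560). All members of the Pou3f1 group had numbers in the lower part of the chromosome's list. Ranked among the listed numbers of the chromosome, they stood at the 0.671, 19.5, 26.7 and 31.9 percentiles, and in each of the other 24 groups the highest member stood at the 35.1 percentile or above. By the median of its members, 23.1, the group ranked 3 of 25, and the median over groups was 48.7. Since low numbers took part in choosing this locus, these places describe it and support nothing further.

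**Figure D3:**
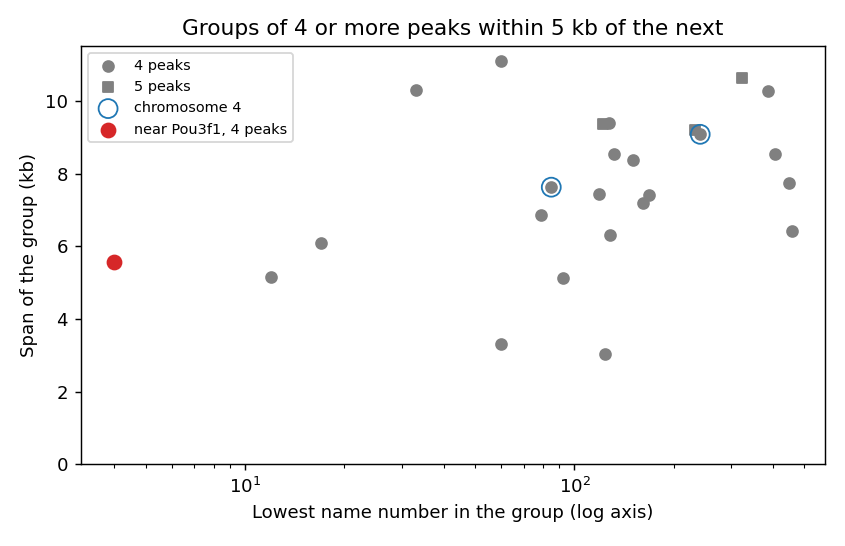
Span in kb (y axis) of the 25 groups of 4 or more peaks against the lowest name number among their members (x axis, log). Circles are groups of 4 peaks and squares are groups of 5, blue rings mark the other two groups of chromosome 4, and the group near Pou3f1 (red) lies furthest left, at number 4 and 5.58 kb.

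The peak with number 4 was set beside other peaks with very low numbers. On chromosome 4, 9 of the numbers from 1 to 10 were listed, and 4 of these peaks (44.4%) had a neighbour within 5 kb, against 118 of all 596 peaks of the chromosome (19.8%). They were the peaks numbered 2, 4, 7 and 8, of which number 4 was chosen for its close neighbours. The peaks numbered 2, 3, 5, 8, 9 and 10 all lay in chr4:40719991-41056078. The 2 shares therefore do not describe low-numbered peaks in general. The peak with number 1, at chr4:129093875-129094039, had its nearest neighbour 140 kb away. Those with numbers 2 and 8 belonged to a single group of 3 (chr4:40746004-40746152 and chr4:40749928-40750082). The peak near Pou3f1 was the only one of the 9 in a group of 4, and the only one with the full width of 166 bp. Across the genome number 4 was listed on 18 of 20 chromosomes. The peak had a neighbour within 5 kb on 4 of them, with the chosen one near Pou3f1 among the 4. Its median distance to the nearest peak was 28.4 kb. Neither value was taken for all listed peaks, so neither is set against the list as a whole. The distance of 1.14 kb near Pou3f1 ranked 2 among the 18, after 0.625 kb on chromosome 5. Of the 189 listed peaks numbered 1 to 10 on any chromosome, the one near Pou3f1 was the only one in a group of 4 or more. The whole list held only 25 such groups, of which 22 had 4 peaks and the others 5. Few peaks of any number can therefore belong to such a group, and their share was not taken for all listed peaks. Neither the 1 of 189 nor the 1 of 9 is read as setting this peak apart. A low number within a close group is what the locus was chosen for, so these comparisons describe it and support nothing further.

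The other members of the locus had numbers spread over the lower and middle part of the chromosome. Chromosome 4 had numbers up to 1627, of which 36.6% were listed, and the median listed number was 383.5. Of the 7 peaks, 5 lay below that median, and the 2 outer peaks on the lower side, numbered 524 and 579, lay above it, at the 62.9 and 67.1 percentiles. The peak above Pou3f1, number 170, stood at the 25.2 percentile. Up to 220, the highest number in the group, 190 numbers of the chromosome (86.4%) were listed.

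Widths at the locus lay on both sides of the chromosome's median. The 7 peaks were 122 to 166 bp wide with a median of 154 bp, against a median of 142 bp for chromosome 4 (interquartile range 116 to 156 bp) and 143 bp for the whole list (120 to 157 bp). Of the 7, 4 were wider than the chromosome's median. None was 83 bp wide or narrower, a class that made up 48 peaks of the chromosome (8.05%). The group of 4 had a median of 148.5 bp and the 3 other peaks one of 154 bp. The 7 peaks of 1 locus are not replicates, and no test was made of these widths.

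**Figure D4:**
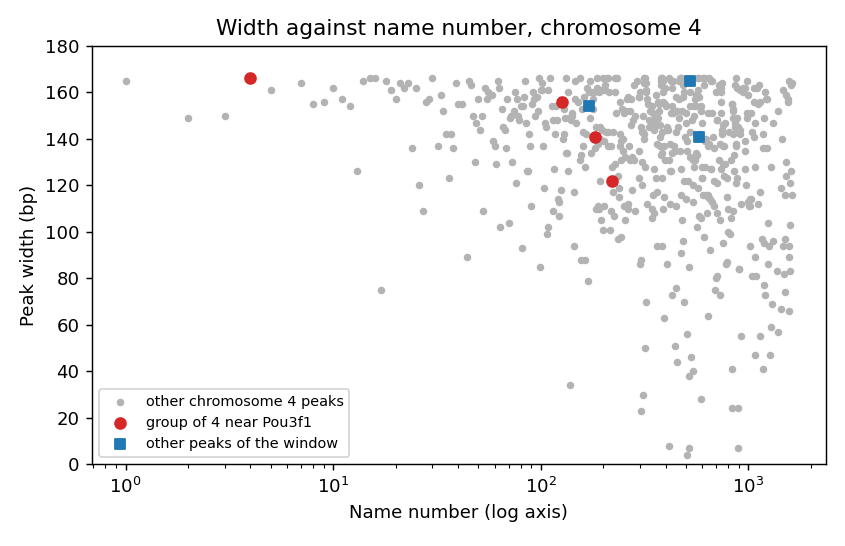
Width in bp (y axis) against name number (x axis, log) for the 596 listed peaks of chromosome 4. The group of 4 near Pou3f1 (red circles) runs from 166 bp at number 4 to 122 bp at number 220, and the 3 other peaks of the window (blue squares) lie at 141 to 165 bp.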

How the data were processed

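The 4 libraries were mapped by the submitters, whose processing notes name BWA, HOMER and build mm9 without versions or roles. The sources used here do not state how lists were intersected, the peak threshold or the use of the controls, and library depth is unknown. The deposited score is 0 in every row, so it holds no peak strength. Start and end are the deposited interval bounds, printed 1-based.

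Peaks were placed by midpoint, and distances between peaks are between midpoints. Percentiles are ranks among the listed numbers of a chromosome. The locus, its members and the lists were chosen with earlier results of these data known. The regions named were every peak of the window, the nearest peak beyond each bound, and the groups of 4 or more on chromosome 4 or with a number of 10 or below; other regions and peaks were named after their values were seen. The gene position is the approximate one by which the locus was chosen. A count of peaks at other POU genes was not run, since no mm9 annotation was used here. Pou3f1 had no entry in the promoter table, so the search for GATA letters was not run and no sequence is printed. Python 3.11.15, NumPy 2.4.6, pandas 2.3.3, SciPy 1.17.1 and matplotlib 3.10.9 were used. Grouping was tested on simulated data with planted groups. Ranking was checked on the same data, in which number and rank were equal by design. Window counts were run on them but not checked against a known value.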

Additional observations from a re-analysis of the deposited data

How the results depend on the processing

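No paired analysis was possible because the list holds no values per library, and for the same reason no library could be left out. Of 20 alternative settings, 13 left the value within 1.5 times of the main one, but 4 of these could not change it, since no member is 83 bp wide or narrower and no members lie within 1 kb of each other. Counting peaks by any overlap with the window, also among the 13, could not change the count either. No listed peak lies closer than 88.9 kb to a bound of the window. The density of the window over chromosome 4 was 2.55, but 5.95 in the 300 kb centred on the stated gene position and 7 against the median 700-kb window. The group had 4 peaks, but 1 with a gap limit of 1 kb, since its smallest internal distance is 1.14 kb. The distance from the group to Pou3f1 was 5.88 kb, but 0.884 kb or 10.9 kb with the gene 5 kb lower or higher. The median number percentile of the window was 26.7, but 62.9 without the group of 4. With the number taken over the highest number of the chromosome, the median was 11.2% of that number. On this other scale the median listed number of the chromosome is 383.5 of 1627, well below the middle. The values 11.2 and 26.7 are therefore not directly comparable. The density rank of the block, an analysis chosen after seeing the data and not among the 20, was 1 with divisions at 250, 300 and 350 kb, 2 at 200 kb and, among blocks with at least the 24 peaks it then held, 6 at 400 kb. The median of 3 peaks or of 4 has no error that could be measured here. Depth limits which sites reach the list, and its effect could not be measured.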
